A study of Branchiostoma lanceolatum with 8 samples.

Results

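The genes described here are the BMP ligands and the extracellular and membrane modulators of BMP signalling that the authors' tables list under the symbols CHRD, BMP2, BMP4, TWSG1, BAMBI and SMOC1. They were measured by poly(A) RNA sequencing in ectodermal explants, pieces cut from the outer layer of the embryo, of Branchiostoma lanceolatum, an amphioxus and thus a chordate without vertebrae. Members were taken by an exact match of the symbol, and every gene identifier that shares a symbol was kept. This gave 8 genes among 18998 in both tables together, of which 7 were listed at 11 hours post fertilization (hpf) and 8 at 19 hpf. BMP2 was the only symbol with more than 1 identifier among these, namely BL12966, BL21413 and, in the 19 hpf table alone, BL07350.

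The explants were treated with human recombinant Activin at 50 ng/mL or were controls, and were harvested at 11 or at 19 hpf. There were 4 groups with 2 libraries apiece, each made from explants mixed from different fertilizations. No transgene or mutation is named for any group. The authors deposited a table for each time with their comparison of the 2 treatments, so spread between libraries is seen here through the standard errors alone.

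BMPs are secreted ligands of the TGF-beta family whose gradient patterns the dorsoventral axis of chordate embryos, with high signalling favouring epidermis and low signalling favouring neural tissue. Chordin binds BMPs outside the cell and keeps them from their receptors, Twisted gastrulation forms complexes with Chordin and BMP, and Tolloid proteases cleave Chordin and release the ligand. In amphioxus embryos Chordin is transcribed on the dorsal side, where the organizer lies, and Nodal signalling, which Activin mimics through the same receptors, is needed for dorsal identity. Amphioxus diverged before the vertebrate gene duplications, so the human-style symbols BMP2 and BMP4 name the most similar vertebrate gene and do not establish a matched pair of orthologues.

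Levels are given as normalized counts, the depth-scaled counts that the authors averaged over all libraries of a time. The mean of each group was rebuilt from that average and the deposited fold change, with equal weight for both groups. Each fold change is the log2 ratio of Activin to control, followed after ± by its standard error as deposited, with 2 libraries a group. The numerator is not named in the headers. Positive values were taken to mean more transcript with Activin because LEFTY2 and GSC, targets of Nodal signalling in other chordates that are not among these 8 genes, had positive values at both times. The authors' deposited table gave LEFTY2 6.39 ± 0.53 at 11 hpf and 6.92 ± 0.43 at 19 hpf, and GSC 2.77 ± 0.58 and 3.88 ± 0.52. Counts were not divided by transcript length, so levels are compared within a gene and not between genes. The 2 tables were normalized separately, so levels at the 2 times are given side by side without a comparison.

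These genes were selected on their deposited fold changes and adjusted p at 11 and 19 hpf, so the values below describe them and test nothing. At 11 hpf all 7 listed genes were past the authors' adjusted p of 0.05, 4 higher and 3 lower in Activin explants, where 36.6% of the 15793 genes were past it, 12% higher and 24.6% lower. At 19 hpf 6 of 8 were past it, 4 higher and 2 lower, where 46.4% of the 16733 genes were past it, 18.7% higher and 27.7% lower. The 4 higher ones were the 3 secreted modulators CHRD, TWSG1 and SMOC1 and the BMP2 gene BL21413. The lower ones were BAMBI, the BMP2 gene BL12966 and, at 11 hpf, BMP4. The median log2 fold change of the listed genes was 3.79 at 11 hpf and 0.78 at 19 hpf, or 2.94 at 19 hpf without BL07350, and over all genes it was 0.07 at both times. All listed genes averaged at least 20 normalized counts over both groups except BL07350. BL21413 did so through its Activin group, with control means of 4.83 at 11 hpf and 6.30 at 19 hpf. Low abundance thus limits BL07350 and BL21413 most.

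**Figure D1:**
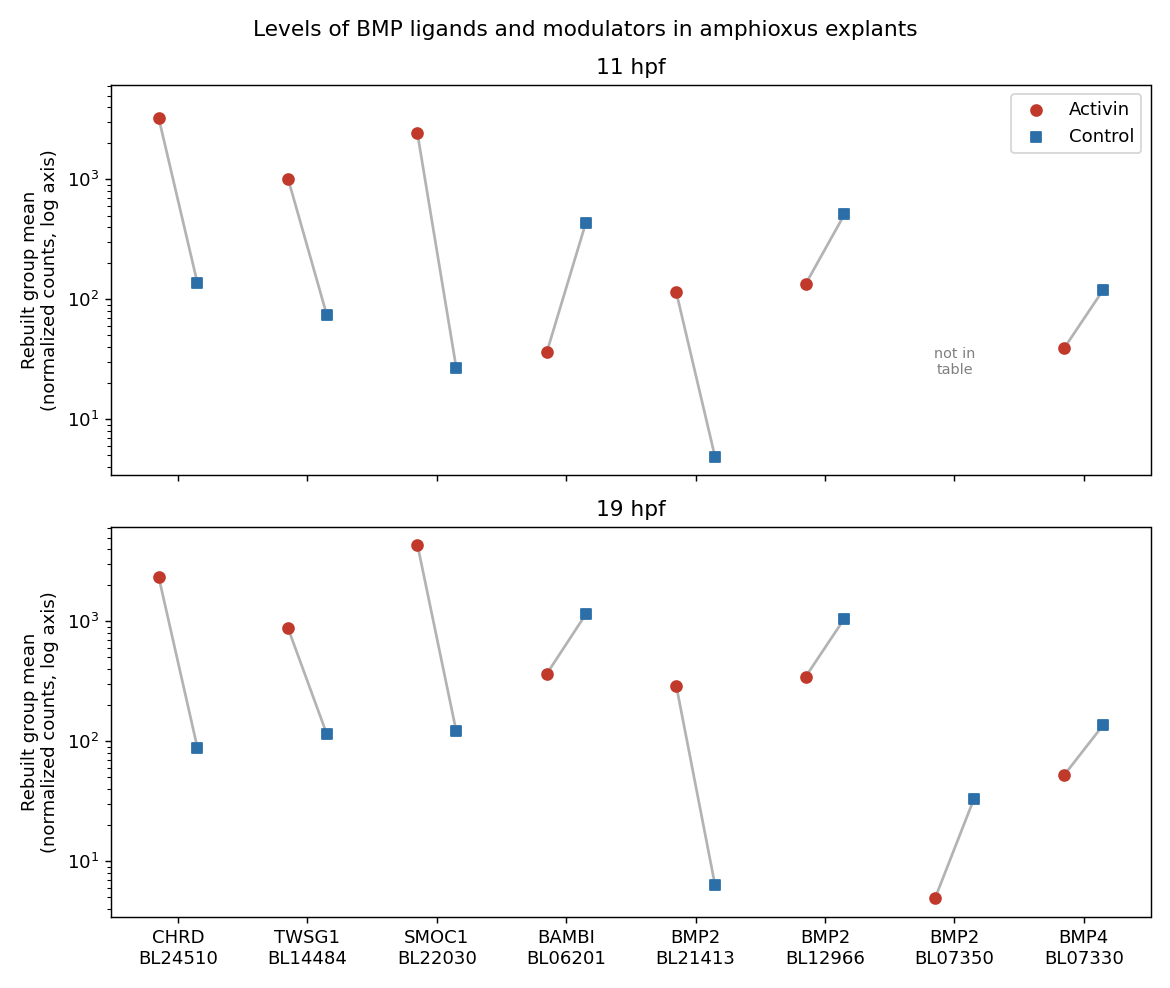
Rebuilt group means in normalized counts (log axis) of each gene in Activin explants (red circles) and control explants (blue squares), at 11 hpf above and 19 hpf below, with a line joining the 2 groups of a gene. CHRD, TWSG1, SMOC1 and BMP2 BL21413 stand higher in Activin explants at both times, and BAMBI, BMP2 BL12966 and BMP4 stand lower.

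CHRD (BL24510) encodes Chordin, the secreted antagonist that binds BMPs. At 11 hpf its rebuilt mean was 3281 normalized counts in Activin explants and 137 in control explants. At 19 hpf it was 2370 in Activin explants and 88.2 in control explants. Transcript levels were thus more than an order of magnitude higher with Activin at each time. The authors' deposited table gave log2 fold changes of 4.59 ± 0.43 at 11 hpf and 4.75 ± 0.37 at 19 hpf. As folds these are 24.01 (95% interval 13.4 to 43.2) at 11 hpf and 26.9 (16.3 to 44.2) at 19 hpf. The effect at 19 hpf minus that at 11 hpf was 0.16 ± 0.57 on the log2 scale, with a 95% interval of -0.95 to 1.27, so a change of up to about that size in either direction is not resolved. A fold change at least as high as that of CHRD at both times was found for 32 of the 13528 genes listed at both, CHRD included, or 0.24%.

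TWSG1 (BL14484) encodes Twisted gastrulation, a secreted protein that in vertebrates and flies binds both BMPs and Chordin. Its rebuilt mean at 11 hpf was 1017 normalized counts in Activin explants and 73.8 in control explants. The 19 hpf means were 879 in Activin explants and 115 in control explants. The authors' deposited table gave log2 fold changes of 3.79 ± 0.57 at 11 hpf and 2.94 ± 0.39 at 19 hpf, or 13.8-fold (95% interval 6.39 to 29.8) and 7.67-fold (4.51 to 13.1). TWSG1 thus rose together with CHRD, with the smallest fold of the 4 higher genes at both times. The effect at 19 hpf minus that at 11 hpf was -0.85 ± 0.69, with a 95% interval of -2.20 to 0.50 that spans 0. The standard error of TWSG1 at 11 hpf was larger than that of 97.5% of the 200 genes with the most similar group means, whose median was 0.44. For CHRD at 11 hpf that share was 91%, against a median of 0.39. At 19 hpf these shares were 22% for TWSG1 and 27% for CHRD, so the looser values of both genes were those of the earlier time.

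SMOC1 (BL22030) encodes a secreted, calcium-binding matricellular protein that inhibits BMP signalling in frog embryos. Its rebuilt mean at 11 hpf was 2428 normalized counts in Activin explants and 26.8 in control explants. At 19 hpf the means were 4374 in Activin explants and 121 in control explants. SMOC1 had the largest fold of the 7 genes listed at 11 hpf and the second largest, after BL21413, at 19 hpf. The 95% interval of SMOC1 overlapped that of BL21413 at both times. The authors' deposited table gave log2 fold changes of 6.50 ± 0.48 at 11 hpf and 5.17 ± 0.33 at 19 hpf, or 90.4-fold (95% interval 47.3 to 173) and 36.02-fold (22.9 to 56.6). It ranked 17 from the highest of 15793 genes at 11 hpf and 209 from the highest of 16733 at 19 hpf. Only 7 of the 13528 genes in both tables, SMOC1 included, were as high as SMOC1 at both times. The effect at 19 hpf minus that at 11 hpf was -1.33 ± 0.58.

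BAMBI (BL06201) encodes a membrane pseudoreceptor that resembles a BMP receptor but lacks the kinase domain, and in vertebrates it is transcribed where BMP signalling is active. Its rebuilt mean at 11 hpf was 36.2 normalized counts in Activin explants and 430 in control explants. At 19 hpf the means were 366 in Activin explants and 1142 in control explants. The authors' deposited table gave log2 fold changes of -3.57 ± 0.47 at 11 hpf and -1.64 ± 0.36 at 19 hpf, so BAMBI was 11.9-fold lower (95% interval 6.27 to 22.4) and 3.12-fold lower (1.92 to 5.09). As deposited, BAMBI had the largest shift in effect between times of the 7 genes listed at both, 1.92 ± 0.59 on the log2 scale. Its 95% interval was 0.77 to 3.08. On ribosomal centring BAMBI stood at -3.94 at 11 hpf and -2.69 at 19 hpf, and SMOC1 at 6.13 and 4.12. SMOC1 then shifted more, so this order depends on the scaling. As falls go in these tables BAMBI was not extreme: 1449 of 13528 genes, or 10.7%, were at least as low as BAMBI at both times.

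**Figure D2:**
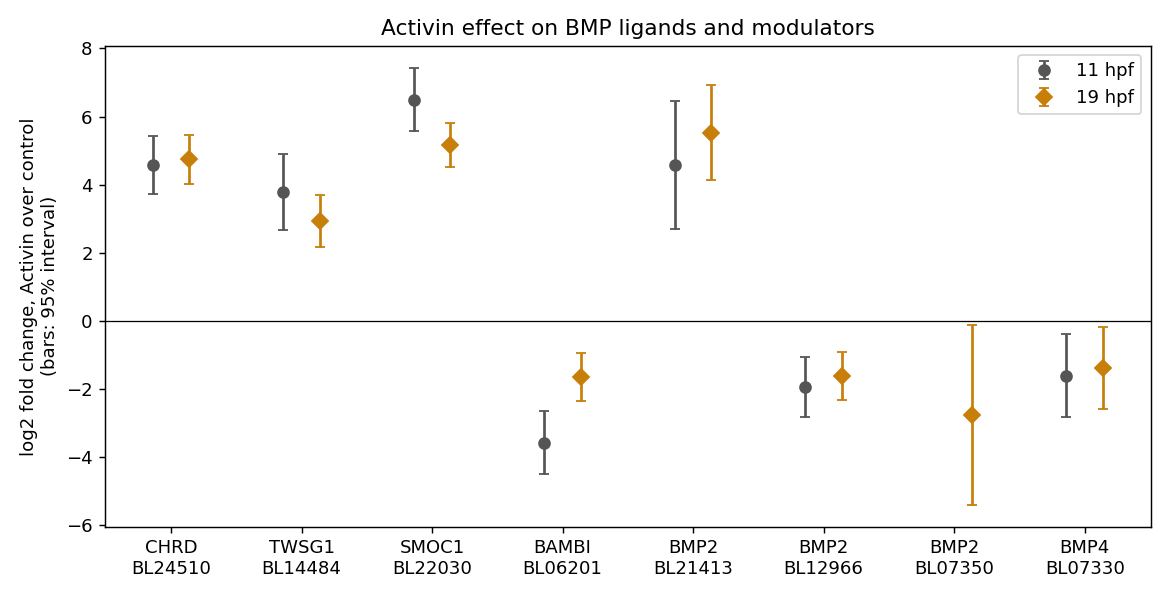
Log2 fold change of Activin over control for each gene at 11 hpf (grey circles) and 19 hpf (orange diamonds), with bars for the 95% interval from the authors' standard error. BAMBI moves from -3.57 at 11 hpf to -1.64 at 19 hpf, while CHRD stays at 4.59 and 4.75.

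The 3 genes under the symbol BMP2, a BMP ligand, did not move in 1 direction. BL12966 had a rebuilt mean at 11 hpf of 134 normalized counts in Activin explants and 511 in control explants. At 19 hpf the means of BL12966 were 345 in Activin explants and 1057 in control explants. The authors' deposited table gave BMP2 BL12966 log2 fold changes of -1.93 ± 0.44 at 11 hpf and -1.61 ± 0.36 at 19 hpf, or 3.82-fold lower (95% interval 2.09 to 6.98) and 3.06-fold lower (1.89 to 4.97). Its effect differed between times by 0.32 ± 0.57, less than its standard error. At 19 hpf its fold change was close to that of BAMBI, while at 11 hpf BAMBI had the larger fall.

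BMP2 BL21413 went the other way. Its rebuilt mean at 11 hpf was 115 normalized counts in Activin explants and 4.83 in control explants. At 19 hpf the means were 292 in Activin explants and 6.30 in control explants, so without Activin this gene was at only a few normalized counts at both times. The authors' deposited table gave BL21413 log2 fold changes of 4.57 ± 0.96 at 11 hpf and 5.53 ± 0.72 at 19 hpf, or 23.8-fold (95% interval 6.47 to 87.4) and 46.3-fold (17.5 to 123) higher. The intervals of BL21413 were wide, and the 200 genes with the most similar group means had a median standard error of 0.97 at 11 hpf and 0.73 at 19 hpf, about that of this gene. BL21413 and CHRD had nearly the same fold change at 11 hpf, and at 19 hpf BL21413 had the highest of the 8 genes. Its log2 interval at 19 hpf, 4.13 to 6.94, covered that of SMOC1, 4.52 to 5.82, so their order is not resolved. Of the 13528 genes listed at both times, 24 were at least as high at each, BL21413 included.

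BMP2 BL07350 was listed at 19 hpf only, with a rebuilt mean of 4.89 normalized counts in Activin explants and 32.9 in control explants. The authors' deposited table gave BL07350 -2.75 ± 1.35, which did not pass their adjusted p of 0.05. Its value pointed the same way as that of BL12966, from which it differed by 1.13 ± 1.40 in log2 fold change. BL21413 exceeded BL12966 by 6.50 ± 1.06 in log2 fold change at 11 hpf and by 7.15 ± 0.80 at 19 hpf. The standard errors of these differences treat the 2 genes as independent although they were read from the same libraries. Reads shared between genes of 1 symbol could move counts from one to another, which was not tested.

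BMP4 (BL07330), a ligand closely related to BMP2, had a rebuilt mean at 11 hpf of 39.4 normalized counts in Activin explants and 120.1 in control explants. At 19 hpf the means were 52.5 in Activin explants and 137 in control explants. The authors' deposited table gave BMP4 log2 fold changes of -1.61 ± 0.62 at 11 hpf and -1.38 ± 0.62 at 19 hpf, or 3.05-fold (95% interval 1.31 to 7.07) and 2.61-fold (1.13 to 6.03) lower. The value at 11 hpf passed the authors' adjusted p of 0.05 and that at 19 hpf did not. The effects themselves differed between times by only 0.23 ± 0.87. The fold changes of BMP4 and BMP2 BL12966 could not be told apart at this precision, with a difference of 0.32 ± 0.76 at 11 hpf (95% interval -1.17 to 1.82) and 0.23 ± 0.71 at 19 hpf (-1.17 to 1.63). Of the 13528 genes 2509, or 18.5%, were at least as low as BMP4 at both times, and 16.8% were at least as low as BMP2 BL12966.

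**Figure D3:**
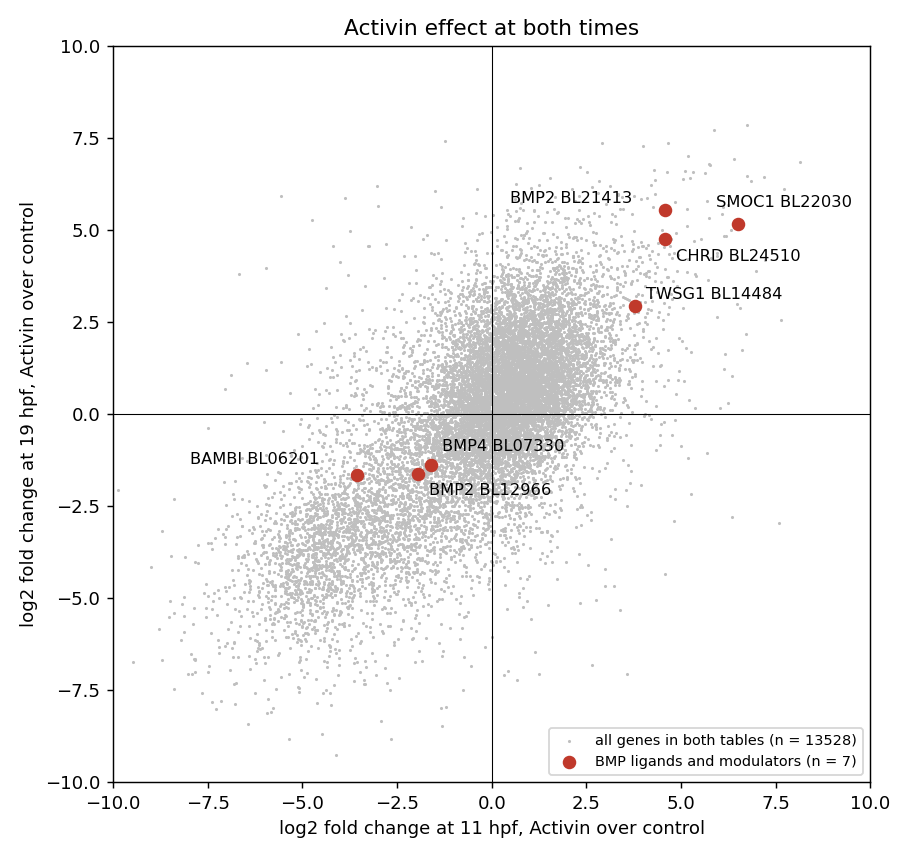
Log2 fold change of Activin over control at 11 hpf (x axis) and 19 hpf (y axis) for the 13528 genes in both tables (grey) and for the 7 BMP ligands and modulators listed at both times (red). SMOC1, CHRD, BMP2 BL21413 and TWSG1 lie in the sparse upper right, where 0.86% of genes or fewer are as high at both times, and BAMBI, BMP2 BL12966 and BMP4 lie within the dense lower left.

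The rest of the transcriptome sets the scale for these values. Genes of the epidermis fell in Activin explants: of 11 marker symbols 4 were measured, and all 4 of their rows fell at 11 hpf and all 5 at 19 hpf. Their summed rebuilt mean at 11 hpf was 10198 normalized counts in Activin explants and 314375 in control explants, and at 19 hpf 36652 in Activin explants and 774007 in control explants. The marker KRT8 (BL15060) held most of the control sums, with 257288 at 11 hpf and 739980 at 19 hpf. The authors' log2 fold changes for it were -5.86 ± 0.37 at 11 hpf and -4.57 ± 1.52 at 19 hpf. At 19 hpf its standard error exceeded those of all 200 genes with the most similar group means. Neural markers rose in 5 of 6 rows at each time, with sums at 11 hpf of 47951 in Activin explants and 13923 in control explants, and at 19 hpf of 41384 in Activin explants and 13801 in control explants. Mesoderm markers rose in 3 of 6 rows at 11 hpf and 4 of 7 at 19 hpf and fell in 0. Their sums were 2449 in Activin and 795 in control explants at 11 hpf. At 19 hpf they were 6297 in Activin and 687 in control explants. The marker SNAI2 (BL20923) held a large part of these sums. It averaged 680 normalized counts over both groups at 11 hpf, with a log2 fold change of 4.39 ± 0.54, and 1693 at 19 hpf, with 4.64 ± 0.34. Of 4 endoderm rows 1 rose and 1 fell at 11 hpf and 2 rose and 1 fell at 19 hpf, with sums of 615 in Activin and 289 in control explants at 11 hpf and of 1990 in Activin and 4032 in control explants at 19 hpf. Of all genes 12% rose and 24.6% fell at 11 hpf, and 18.7% rose and 27.7% fell at 19 hpf. The part that a change in these cell types plays in the BMP values was not tested. In bulk samples fewer cells of a type and less RNA per cell cannot be told apart.

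Scaling moved all fold changes of a table together. Setting equal totals in both groups corresponds to a log2 shift of -0.98 at 11 hpf and -0.86 at 19 hpf, and centring on ribosomal protein genes to 0.37 and 1.05. These are subtracted from every gene, and they put the share of lower genes among all calls at 35.2% and 78.7% at 11 hpf, and at 37.1% and 85.2% at 19 hpf. None of the 8 genes changed sign under any of 6 scalings. CHRD ranged from 4.22 to 5.56 at 11 hpf and from 3.70 to 5.61 at 19 hpf, SMOC1 from 6.13 to 7.47 and from 4.12 to 6.03, and all 4 higher genes stayed past an adjusted p of 0.05 under each scaling. BMP4 passed under 2 of 6 scalings at 11 hpf and also under 2 of 6 at 19 hpf. Its values with equal totals were -0.63 and -0.52. With only genes averaging at least 20 normalized counts kept, all 7 such listed genes passed at 19 hpf, BMP4 included. BMP2 BL07350 at 19 hpf passed under 1 of 6 scalings. BMP2 BL12966 at 11 hpf passed under 4 of 6, with -0.96 at equal totals, and at 19 hpf under 5 of 6, with -0.76. BAMBI passed under all 6 at 11 hpf and 5 of 6 at 19 hpf. The split of the listed genes past the threshold was 4 higher and 1 lower at 11 hpf with equal totals, and 4 higher and 0 lower at 19 hpf. On ribosomal centring it was 4 and 3 at 11 hpf, and 4 and 4 at 19 hpf.

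**Figure D4:**
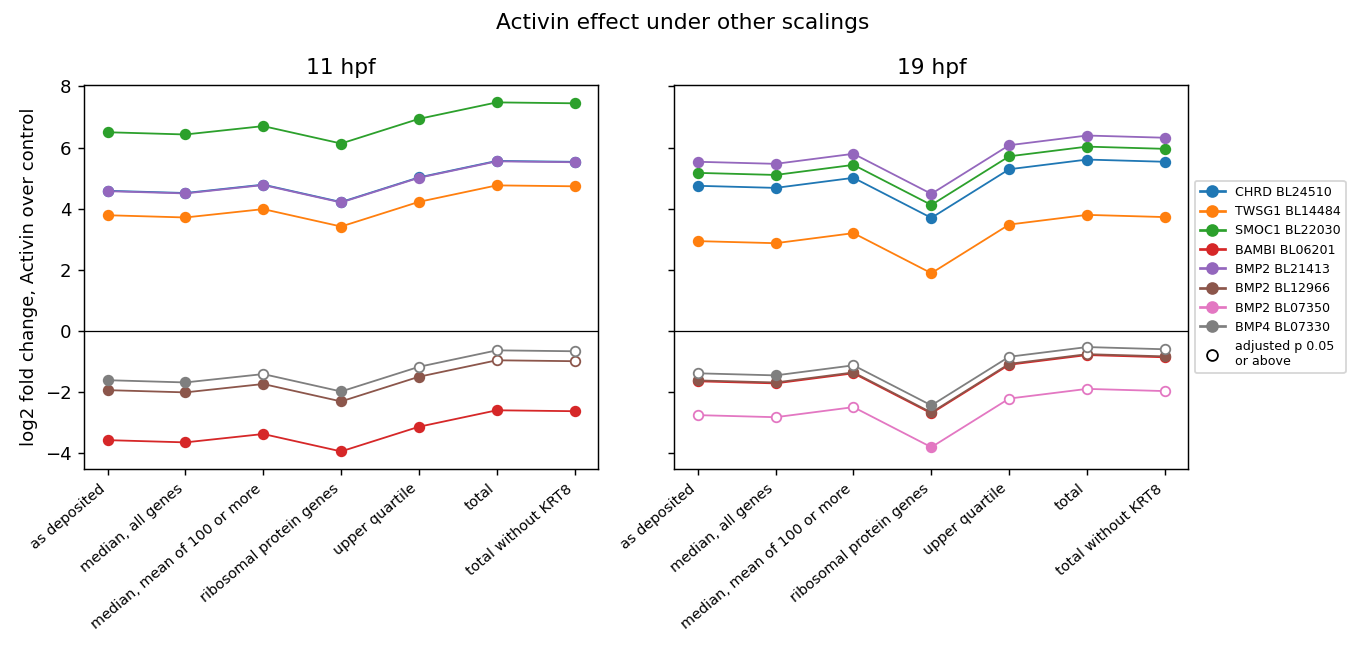
Log2 fold change of Activin over control of each gene as deposited and under 6 other scalings, at 11 hpf (left) and 19 hpf (right), with open symbols where the adjusted p was 0.05 or above. CHRD and BMP2 BL21413 overlap at 11 hpf and BAMBI and BMP2 BL12966 at 19 hpf, and every line stays on its side of 0.

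Genes with a like pattern were taken as the 3 with the shortest distance over the 2 log2 fold changes. They were drawn from 7561 named genes that averaged at least 20 normalized counts at both times. That average is over both groups, so a gene could reach it through its Activin group alone. For CHRD the nearest were SNAI2 (BL20923) at a distance of 0.22, NKX6-2 at 0.47 and FAN1 at 0.54. SNAI2, a zinc finger regulator of cell migration, is also counted above as a mesoderm marker. For SMOC1 the nearest were NKX2-1 at 0.26, SLC22A5 at 0.49 and FOXB1 at 0.56. The authors' deposited table gave NKX2-1, a homeobox gene of forebrain and pharynx, 6.31 ± 2.58 at 11 hpf. It gave SLC22A5 6.13 ± 1.26 and FOXB1 6.25 ± 1.70 at 11 hpf, so all 3 likenesses to SMOC1 are loosely set. For BMP2 BL21413 the nearest were SLIT1, a secreted guidance cue, at 0.33, ZNF782 at 0.59 and CHRD itself at 0.79. For TWSG1 they were TOPBP1 at 0.12, PARP14 at 0.13 and WRN at 0.19. For BAMBI the nearest were TM9SF4 at 0.10, HERPUD2 at 0.11 and GOLPH3 at 0.17, for BMP2 BL12966 RAB21 at 0.017, PARK7 at 0.052 and RAB34 at 0.11, and for BMP4 RDH12 at 0.018, CDC42SE2 at 0.024 and HPS5 at 0.078. Each likeness rests on 2 comparisons. Except for ZNF782 and CHRD, the standard error of each of these nearest genes at 11 hpf exceeded its distance, so their order is not resolved.

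Other genes of the BMP pathway were taken from a list of 64 symbols, of which 23 were found, with 36 genes. At 11 hpf 8 of the 29 listed genes rose, 3 fell and 18 did not pass, so 37.9% passed where 36.6% of all genes did. At 19 hpf 10 of 35 rose, 2 fell and 23 did not pass, 34.3% where 46.4% of all genes did. The median log2 fold change of the list was 0.06 at 11 hpf and 1.16 at 19 hpf, and 0.07 over all genes at both. As deposited, the share at 11 hpf was near its background and that at 19 hpf was below it. The latter depends on the scaling. At 19 hpf 19 of the 35 passed under equal upper quartiles, where 8325 of the 16733 genes did, a share above background. With equal totals 22 passed, where 8992 of all genes did, again above it. On ribosomal centring 15 passed, where 8515 of all genes did, a share below it. Under equal upper quartiles 18 of the 35 were higher and 1 lower at 19 hpf, and on ribosomal centring 6 were higher and 9 lower, so the split of this list depends on the scaling.

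Extracellular modulators outside the 6 symbols moved in both directions. At 11 hpf 5 of 15 rose and 2 fell, 46.7% in all where 36.6% of all genes passed, and at 19 hpf 7 of 20 rose and 2 fell, 45% where 46.4% of all genes passed. FST (BL00960), which encodes follistatin, a protein that binds Activin and BMPs, was listed at 19 hpf only, at 164 normalized counts in Activin explants and 5.41 in control explants. In the authors' deposited table FST stood at 4.92 ± 0.80, Benjamini-Hochberg adjusted p = 7.2e-09. It was thus on the same side as CHRD and SMOC1 at 19 hpf.

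BMPER (BL96452), which encodes a secreted Chordin-related BMP-binding protein, rose at both times, to 71.8 normalized counts in Activin explants against 17.9 in control explants at 11 hpf, and to 544 in Activin explants against 65.9 in control explants at 19 hpf. The authors' deposited table gave this BMPER gene 2.01 ± 0.79 at 11 hpf, Benjamini-Hochberg adjusted p = 0.034, and 3.05 ± 0.44 at 19 hpf, adjusted p = 5.7e-11. Its call at 11 hpf was lost on ribosomal centring, at 1.64. The other 3 BMPER genes did not pass at the times they were listed. DAND5 (BL11149), of the Cerberus and DAN family, which binds Nodal and BMPs, rose at 11 hpf with 41.9 in Activin explants against 0.68 in control explants, a control level too low for a readable fold. The authors' deposited table gave DAND5 an adjusted p = 0.0035 by Benjamini-Hochberg at 11 hpf, and at 19 hpf 2.65 ± 1.20, adjusted p = 0.057.

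SMOC2 (BL16965), a relative of SMOC1, did not follow it at 11 hpf. It was lower in Activin explants at that time, 1.77 normalized counts against 32.4 in control explants, and higher at 19 hpf, 150 in Activin explants against 6.38 in control explants. The authors' deposited table gave SMOC2 -4.20 ± 1.31 at 11 hpf, Benjamini-Hochberg adjusted p = 0.0052, and 4.56 ± 0.82 at 19 hpf, adjusted p = 1.5e-07. SOSTDC1 (BL18557), a secreted BMP and Wnt antagonist, did the reverse. Its means were 45.03 in Activin explants against 3.50 in control explants at 11 hpf, and 90.3 in Activin explants against 263 in control explants at 19 hpf. The authors' deposited table gave SOSTDC1 3.68 ± 1.17 at 11 hpf, Benjamini-Hochberg adjusted p = 0.0063, and -1.54 ± 0.51 at 19 hpf, adjusted p = 0.0071. The call for SOSTDC1 at 19 hpf was lost under equal upper quartiles, at -0.9996, and with equal totals, at -0.68 or, without KRT8, -0.76. Levels of both genes at 11 hpf were a few normalized counts in 1 of the groups, so the size of these folds is poorly set.

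The Tolloid proteases, which cleave Chordin, were split over several genes. TLL1 (BL19184) fell at 11 hpf, to 37.8 normalized counts in Activin explants against 200.2 in control explants, with -2.40 ± 0.55 and a Benjamini-Hochberg adjusted p = 7.1e-05 in the authors' deposited table. TLL2 (BL08845) rose at 11 hpf, to 106 in Activin explants against 5.72 in control explants, with 4.21 ± 0.91 and a Benjamini-Hochberg adjusted p = 2.1e-05 in the authors' deposited table. TLL2 (BL05241) was listed at 19 hpf only and fell, to 7.81 in Activin explants against 76.3 in control explants, with -3.29 ± 0.94 and a Benjamini-Hochberg adjusted p = 0.0015 in the authors' deposited table. TLL2 (BL13342) rose at 19 hpf, to 787 in Activin explants against 189 in control explants, with 2.06 ± 0.40 and a Benjamini-Hochberg adjusted p = 1.8e-06 in the authors' deposited table. As deposited, these genes did not pass at the other time they were listed. At 19 hpf TLL1 (BL19184) stood at -0.16 ± 0.46 and TLL2 (BL08845) at 3.40 ± 1.53, and at 11 hpf TLL2 (BL13342) stood at -2.34 ± 1.08. The remaining TLL1 and TLL2 genes and BMP1 (BL06844) did not pass at any time they were listed, as deposited. Some of these outcomes depend on the scaling. Under equal upper quartiles TLL2 (BL08845) passed as higher at 19 hpf, at 3.94, and so did TLL1 (BL16752), at 3.49. On ribosomal centring TLL1 (BL19184) passed as lower at 19 hpf, at -1.21, and TLL2 (BL13342) passed as lower at 11 hpf, at -2.71. Symbols such as TLL2, with several genes, have the same limit of shared reads as BMP2.

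Ligands other than BMP2 and BMP4 were 2. BMP7 (BL11844), which can pair with BMP2 or BMP4 in heterodimers, fell at 11 hpf to 84.5 normalized counts in Activin explants against 214 in control explants. The authors' deposited table gave BMP7 -1.34 ± 0.50 at 11 hpf, Benjamini-Hochberg adjusted p = 0.024, and -0.84 ± 0.45 at 19 hpf, adjusted p = 0.11. BMP3 (BL16638) did not pass at either time, at -2.23 ± 1.22 and -0.72 ± 0.47 in the authors' deposited table. The call for BMP7 at 11 hpf was lost under 4 of 6 scalings, with values of -1.14 centred on genes averaging at least 100 normalized counts, -0.90 under equal upper quartiles, and -0.37 with equal totals or -0.40 without KRT8. With equal totals the values at 19 hpf turned to 0.015 for BMP7 and 0.14 for BMP3.

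As deposited, 2 of 8 receptors and co-receptors rose at 11 hpf and 3 of 9 at 19 hpf, and 0 fell at either. These shares of 25% and 33.3% lie below the 36.6% and 46.4% of all genes. RGMA (BL16376), a co-receptor for BMPs, rose to 1157 normalized counts in Activin explants against 289 in control explants at 11 hpf, and to 6431 in Activin explants against 653 in control explants at 19 hpf. The authors' deposited table gave RGMA 2.004 ± 0.43, Benjamini-Hochberg adjusted p = 1.8e-05, and 3.30 ± 0.31, adjusted p = 1.4e-24. ACVR1 (BL21996), a type I BMP receptor, stood at 1.62 ± 0.36, Benjamini-Hochberg adjusted p = 4.3e-05, and 0.86 ± 0.34, adjusted p = 0.027, in the authors' deposited table, and its value at 19 hpf turned to -0.19 on ribosomal centring. BMPR1B (BL03672), another type I receptor, stood at -0.14 ± 0.35 at 11 hpf, adjusted p = 0.80, and rose by 1.20 ± 0.31 at 19 hpf, Benjamini-Hochberg adjusted p = 3.9e-04, in the authors' deposited table. On ribosomal centring the value of BMPR1B at 19 hpf was 0.15 and did not pass. BMPR2 (BL18556), a type II receptor, did not pass at either time, at 0.06 ± 0.67 and 0.80 ± 0.52 in the authors' deposited table. The receptor gene ACVR2B (BL23367) did not pass either, at 0.30 ± 0.35 and -0.49 ± 0.34. On ribosomal centring ACVR2B passed as lower at 19 hpf, at -1.54, and with equal totals it passed as higher at 11 hpf, at 1.28.

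Inside the cell, SMAD1 (BL03377), the transcription factor that BMP receptors phosphorylate, and its partner SMAD4 (BL11443) did not pass at either time. The authors' deposited table gave SMAD1 -0.41 ± 0.33 at 11 hpf and 0.67 ± 0.30 at 19 hpf, and SMAD4 -0.15 ± 0.40 and 0.18 ± 0.34. Whether they passed depended on the scaling. At 19 hpf SMAD1 passed as higher under equal upper quartiles, at 1.21, and with equal totals, at 1.52. SMAD4 passed as higher at 19 hpf with equal totals, at 1.04. On ribosomal centring SMAD1 passed as lower at 11 hpf, at -0.78, and stood at -0.38 at 19 hpf, where SMAD4 stood at -0.87. SMAD6 (BL20907), an inhibitory SMAD that is itself a BMP target in vertebrates, rose at 11 hpf to 213 normalized counts in Activin explants against 36.3 in control explants, and at 19 hpf had 361 in Activin explants against 298 in control explants. The authors' deposited table gave SMAD6 2.55 ± 0.60, Benjamini-Hochberg adjusted p = 1.3e-04, and 0.28 ± 0.41, adjusted p = 0.59, and the value at 19 hpf passed with equal totals, at 1.14, and turned to -0.77 on ribosomal centring. ID2 (BL18859), of a family of direct BMP targets in vertebrates, did not pass at either time, at -0.27 ± 0.39 and 0.39 ± 0.30 in the authors' deposited table. At 19 hpf ID2 passed under equal upper quartiles, at 0.93, and with equal totals, at 1.25, and turned to -0.66 on ribosomal centring. It was the only target gene of the list that was measured.

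**Figure D5:**
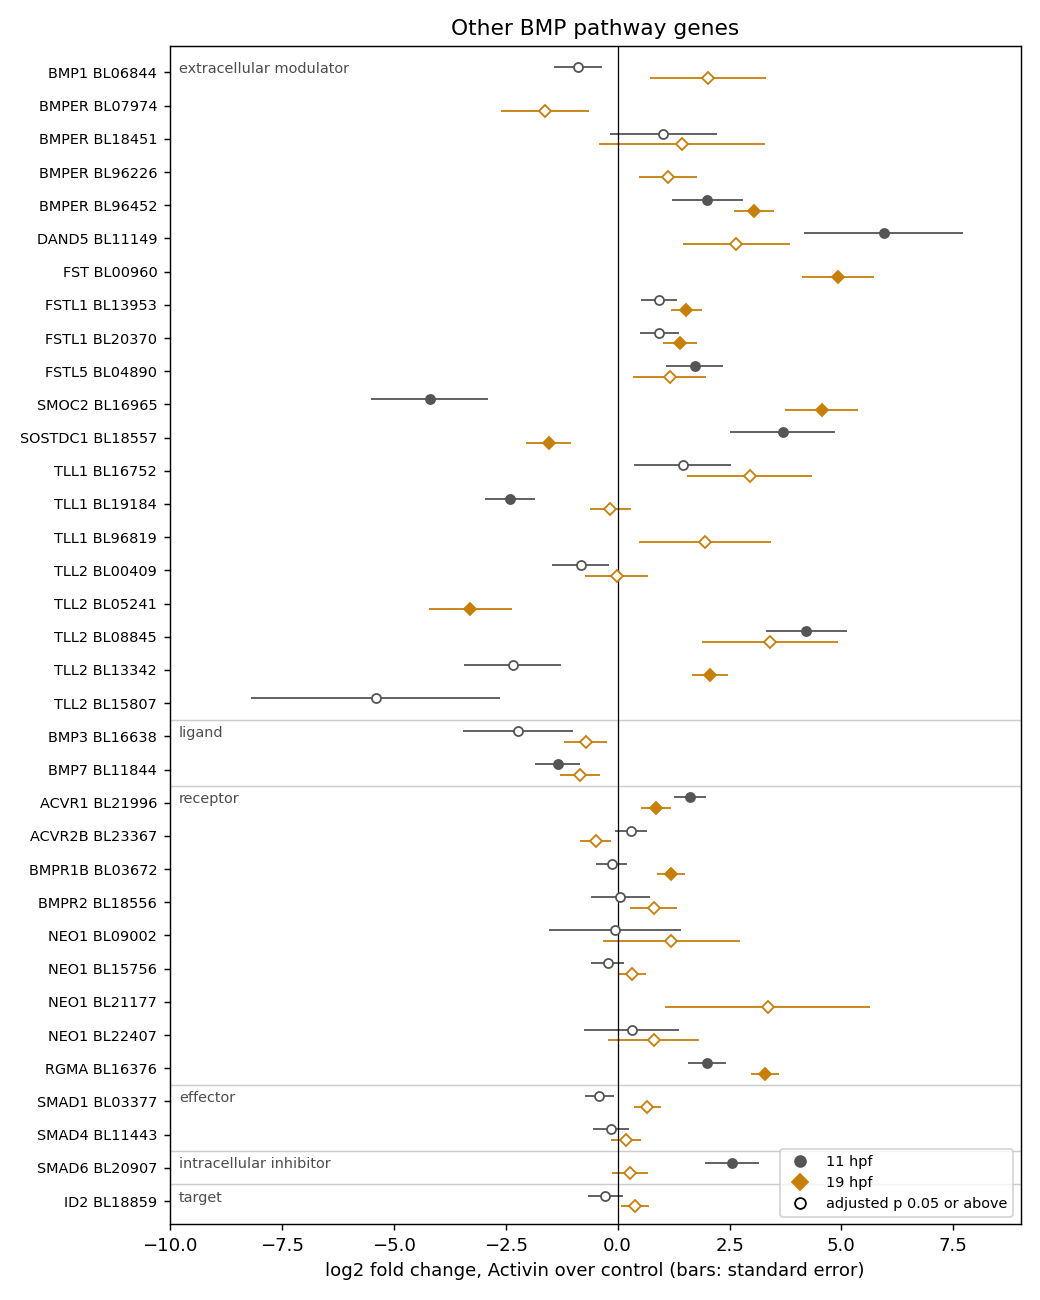
Log2 fold change of Activin over control of 35 of the other BMP pathway genes by role, at 11 hpf (grey circles) and 19 hpf (orange diamonds), with bars for the authors' standard error and open symbols where the adjusted p was 0.05 or above. As deposited, extracellular modulators spread to both sides of 0, while SMAD1, SMAD4 and ID2 stay within 0.67 log2 units of 0.

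The difference between times was tested for the 28 pathway genes listed at both, by a two-sided Wald test from the standard errors of both tables with adjustment over 13528 genes. It passed for 6 of them, or 21.4%, where 16.8% of all genes passed. The Activin effect was higher at 19 hpf for 4, BMPR1B, SMOC2, TLL1 (BL19184) and TLL2 (BL13342), and lower for 2, SOSTDC1 and SMAD6. On ribosomal centring 6 genes of the list also passed, but the upward differences were smaller. BMPR1B then stood at -0.50 at 11 hpf and 0.15 at 19 hpf, with a standard error of 0.47 for the difference. TLL1 (BL19184) stood at -2.77 and -1.21. Which genes pass thus depends on the scaling. The Activin effect on SMAD6 was smaller at 19 hpf, with a change of -2.27 ± 0.73 between times, Benjamini-Hochberg adjusted p = 0.016.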

How the data were processed

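Libraries of poly(A) RNA from 8 samples, 2 per treatment and time, were processed by the authors; the submitters' processing notes name edgeR, HISAT2 and featureCounts, while the columns carry the names of a DESeq2 results table, so which tool the authors used for the standard errors and scores is not settled; versions, genome build and annotation are not given in the sources used here. Per the file headers, each table holds a mean signal of normalized counts, a log2 fold change with its standard error, a test score, and a raw and an adjusted p-value, all made by the authors. In every row the score equalled fold change over standard error, and the adjusted p-value was a Benjamini-Hochberg adjustment over the deposited rows. Depth per library is unknown; the means summed to 9146020 at 11 hpf and 10891500 at 19 hpf. The tables hold no counts per library, so the count model planned for that case was not run and the authors' values were used at an adjusted p below 0.05. Lower abundance gives wider errors. Nothing says that replicates share no fertilization, so p-values measure the spread between these pooled samples.

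Group means were rebuilt from mean and fold change. The Wald test of the difference between times was run on simulated data. The noise was drawn from the deposited standard errors, so this could not check whether those errors are right. Intervals are the value ± the normal 95% limit of its standard error. Scalings subtract the log2 shift between groups in the median of all genes, the median of genes averaging at least 100 normalized counts, the median of 62 ribosomal protein genes, the upper quartile, the total, and the total without KRT8, and recompute the Wald p. Python 3.11.15, pandas 2.3.3, numpy 2.4.6 and scipy 1.17.1 were used.

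Named genes were all rows of the 6 symbols, up to 4 passing pathway genes per role, time and direction with the largest fold changes, and 3 genes of nearest pattern; others were chosen after their values were seen. For 1 pathway gene no value is reported here; it is included in the counts. Members and lists were chosen with earlier results of these data known.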

Additional observations from a re-analysis of the deposited data

Results flagged for a closer look

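Each of these 6 BMP pathway genes was picked out because its Activin effect differed between 19 and 11 hpf by the two-sided Wald test, Benjamini-Hochberg adjusted over 13528 genes. The effect at 19 hpf minus that at 11 hpf, on the log2 scale, was 8.75 ± 1.54 for SMOC2 (BL16965), adjusted p = 8.9e-07, with an Activin mean of only 1.77 normalized counts at 11 hpf. It was -5.22 ± 1.28 for SOSTDC1 (BL18557), adjusted p = 8.1e-04, and 4.40 ± 1.15 for TLL2 (BL13342), adjusted p = 0.0021. For TLL1 (BL19184) it was 2.24 ± 0.71, adjusted p = 0.015, for SMAD6 (BL20907) -2.27 ± 0.73, adjusted p = 0.016, and for BMPR1B (BL03672) 1.33 ± 0.47, adjusted p = 0.031. The upward differences were smaller on ribosomal centring, where BMPR1B stood at -0.50 at 11 hpf and 0.15 at 19 hpf.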

How the results depend on the processing

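No paired analysis was possible because the tables carry no values per library, and for the same reason fits without a replicate and with a second count tool were not run. The count of lower genes among the 8 moved to 1 at 11 hpf with equal totals and also without KRT8, and at 19 hpf to 0 with equal totals and 4 on ribosomal centring, where their median turned to -0.27. The pathway list had 5 lower at 11 hpf on ribosomal centring, and its median there turned to -0.31 and, centred on all genes, to -0.012. At 19 hpf it had 6 higher and 9 lower on ribosomal centring, where ACVR1 turned to -0.19. Under equal upper quartiles 19 of its genes passed, 18 higher and 1 lower. With equal totals, with or without KRT8, 22 passed, 21 higher and 1 lower. Of all 16733 genes at 19 hpf 8325 passed under equal upper quartiles, and 8992 with equal totals or 8813 without KRT8. The difference between times passed for 1321 genes, 3 of them in the list, at an adjusted p below 0.01, against 2268 and 6 at 0.05. The cause of these changes was not tested. The other counts, under filters on abundance, fold and threshold, stayed within 1.5 times of those reported. Low levels limit BL07350, BL21413, DAND5 and SMOC2 most. The scaling without KRT8 was chosen after seeing the data.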

Other observations

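Both FSTL1 genes, which encode follistatin-like secreted proteins and were chosen here after their values were seen, had close values. The authors' deposited table gave 0.93 ± 0.41 for BL13953 and 0.93 ± 0.43 for BL20370 at 11 hpf, neither past the threshold. At 19 hpf it gave 1.54 ± 0.35 and 1.40 ± 0.38, both past it. The effect at 19 hpf minus that at 11 hpf was 0.61 ± 0.54 and 0.47 ± 0.58, and neither difference passed. On ribosomal centring neither gene passed at 19 hpf, at 0.49 and 0.35. With equal totals both passed at 11 hpf, at 1.90 each.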
